A study of Homo sapiens with 17 samples.

Results

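Copying the genome takes a set of proteins whose genes are mostly switched on as a cell commits to S phase, and the 44 genes described here encode much of that set. They were taken from a fixed list of named genes: the replicative helicase, the factors that load it, the polymerases, the sliding clamp and its loader, the proteins that cover single strands and join the lagging strand, the enzymes that supply nucleotides, and chromatin factors with cyclin E. All 44 were present in both tables of the series, of 14085 genes listed for MG132 and 13616 for heat shock. The filter on low values left 39 of the 44 to be tested in each, and 37 were tested in both.

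The study measured mRNA in PC3M, an established line of metastatic human prostate cancer cells, in 17 libraries that fell into 7 groups. In the MG132 table, cells with HSF1 knocked out (KO, n = 2, named A and B), cells given an siRNA to silence JMJD6 (siJMJD6, n = 2) and cells given a control siRNA with no target (siNT, n = 2) were treated with MG132, which blocks the proteasome, at 2.5 µM for 4 hours. Further siNT cells received DMSO (n = 2). In the heat shock table, siJMJD6 cells (n = 3) and siNT cells (n = 3) were held at 42 °C for 1 hour and recovered for 2 hours, beside siNT cells without heat shock (basal, n = 3). The siRNAs were present for 72 hours. The genotype labels of the KO libraries name no siRNA and do not say whether A and B are separate clones. HSF1 is the transcription factor that switches on chaperone genes when proteins misfold, and JMJD6 is a nuclear oxygenase of the JmjC family. Unstressed siJMJD6 and KO cells were not analysed here, so an effect of the siRNA or the knockout under stress could not be told apart from one present before stress.

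As background, MCM2 to MCM7 form a ring that is loaded onto origins in G1 by the origin recognition complex with CDC6 and CDT1. CDC45 and the GINS complex turn the ring into the active helicase when S phase starts. DNA polymerase alpha with its primase begins each strand, polymerase epsilon extends the leading strand and polymerase delta the lagging strand, held on DNA by the clamp PCNA, which the RFC complex loads. Most of these genes are textbook targets of the E2F transcription factors, whose activity follows the retinoblastoma protein and peaks as cells enter S phase. In a population of cells, their mRNA therefore tracks both the share of cells near S phase and the output of each cell. Fewer cells of one cycle stage and less mRNA per cell cannot be told apart in bulk libraries.

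E2F-type motifs were searched in promoter windows from RefSeq (GRCh38.p14, from 250 bases before to 50 bases after each gene's start), and 38 of the 44 genes had 1 or more windows, 49 in all. Both strands were read. TTGGCGC lay in a window of 12 of the 38 genes, the sequence TTCGCGC in that of 10 genes, and the sequence TTCCCGC in that of 18 genes. At least 1 of these motifs lay in a window of 30 of the 38 replication genes, 78.9%, against 22.7% of the 7890 other tested genes with a window. A match is a description of the letters and not a measured binding site. The stretches below are shown for MCM6, POLA2, RRM1, TYMS and LIG1, which were lower in siJMJD6 cells after heat shock, and for RRM2 and TK1, which were higher there, so that both kinds can be seen to carry the motif. Each is printed along the gene's own strand, with the match or its reverse complement in capitals. Only matches before the start are shown. LIG1 also holds matches after its start, and RRM2 and TK1 each have a further window without a match. In MCM6 each capital run holds the first motif overlapping the reverse complement of the second.
MCM6, chr2:135876498-135876619, minus strand: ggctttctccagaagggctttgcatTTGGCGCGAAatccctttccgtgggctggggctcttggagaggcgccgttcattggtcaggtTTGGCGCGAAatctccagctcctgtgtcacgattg
POLA2, chr11:65261885-65261941, plus strand: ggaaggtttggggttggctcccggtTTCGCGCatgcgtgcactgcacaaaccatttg
RRM1, chr11:4094437-4094493, plus strand: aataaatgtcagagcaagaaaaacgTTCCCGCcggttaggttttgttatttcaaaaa
TYMS, chr18:657589-657645, plus strand: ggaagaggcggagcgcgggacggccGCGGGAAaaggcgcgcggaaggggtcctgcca
LIG1, chr19:48170426-48170482, minus strand: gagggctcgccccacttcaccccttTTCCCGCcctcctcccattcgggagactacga
RRM2, chr2:10122351-10122407, plus strand: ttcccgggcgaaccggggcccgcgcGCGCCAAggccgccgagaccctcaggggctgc
TK1, chr17:78187053-78187089, minus strand: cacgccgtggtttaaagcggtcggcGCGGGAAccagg
By response, the motif after heat shock was present in 12 of 14 lower genes with a window, in 4 of 5 higher genes and in 11 of 15 genes that did not pass the test. Under MG132 it was present in 10 of 13 lower genes and in 19 of 22 that did not pass.

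Column totals lay between 1505826 and 1819640 normalised counts, and 1 read was worth between 0.833 and 1.08 normalised counts in the 11 libraries where the smallest values formed a clear step. Across genes, replicates of a group correlated at r = 0.936 to 0.958 (MG132) and 0.963 to 0.973 (heat shock) on the log2 scale. The targeted genes followed the labels. JMJD6 held 26.6 and 16.6 normalised counts in siJMJD6 cells and 167 and 129.8 in siNT cells under MG132, and 9.72, 7.66 and 14.6 in siJMJD6 cells and 209, 210.2 and 253 in siNT cells after heat shock. HSF1 held 285 and 175 in the KO libraries and 1687 and 1884 in siNT cells under MG132, but a tag from the 3' end does not check the deletion itself. JMJD6 held 80.5 and 79.4 in the KO libraries, below both siNT libraries under MG132 (log2 fold change -0.87, limma adjusted p = 0.267). HSF1 held 2968 and 2216 in siJMJD6 cells under MG132, above both siNT libraries (0.52, limma adjusted p = 0.218). After heat shock HSF1 was higher in siJMJD6 than in siNT cells (0.25, limma adjusted p = 0.00573). All 7 epithelial markers were detected, with sums of 1619 to 3593 normalised counts. Of the 7 blood and immune markers only CD14 was listed, at 8.54 or less, and the androgen-driven prostate genes listed summed to 28.3 or less. No label says that replicates are separate cultures, so the p-values rest on a spread that may be technical.

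Below, a log2 fold change is given ± its standard error from limma, fitted across all tested genes of a table on log2(normalised count + 1). A gene is called higher or lower, or said to rise or fall, only where the Benjamini-Hochberg adjusted p over all tested genes was under 0.05. Of the 5 comparisons made with siNT cells, the 2 with siJMJD6 as the other group called the most replication genes, mainly lower, while each stress and the HSF1 knockout moved 0 to 2 of them past the test. Under MG132, 15 of the 39 tested genes fell in siJMJD6 cells against siNT cells and 0 rose, a share of 38.5%, where 13.6% of all tested genes were called, 7.35% lower and 6.22% higher. Both siJMJD6 libraries lay below both siNT libraries in 23 of the 39 genes and above them in 5, where 28.1% and 24.9% of all tested genes did so. Their median log2 fold change was -0.68, against -0.05 over all tested genes. After heat shock, 23 of 39 genes were called in siJMJD6 cells against siNT cells, 16 lower and 7 higher, a share of 59%, where 46.4% of all tested genes were called, 24.9% lower and 21.4% higher. All 3 siJMJD6 libraries lay below the siNT libraries in 16 genes and above them in 4, where 28.8% and 25.2% of all tested genes did so. The median there was -0.22, against -0.03 over all tested genes.

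Summed, the 44 genes made up 0.334 and 0.32% of the column total in the KO libraries, 0.134 and 0.202% in the siJMJD6 libraries under MG132, 0.265 and 0.236% in siNT cells under MG132 and 0.27 and 0.233% in DMSO. In the heat shock table the shares were 0.175, 0.191 and 0.191% in siJMJD6 cells, 0.21, 0.211 and 0.211% in siNT cells after heat shock and 0.235, 0.235 and 0.24% in basal cells. The siJMJD6 groups lay lowest in both tables and did not overlap with any other group. Among markers of other cell types, CD14 held 5.25 and 8.54 in siJMJD6 cells and 1.04 and 0 in siNT cells under MG132, and overlapped after heat shock. Of the 4 endothelial markers, PECAM1 held 9.56, 9.62 and 4.86 in siJMJD6 and 10.6, 11.04 and 18.9 in siNT cells after heat shock, and KDR, listed there only, held 4.22, 5.27 and 6.89 in siJMJD6 and 2.89, 0 and 3.69 in siNT cells. Both were without overlap, in opposite directions, and their sums overlapped (11.8 to 14.9 in siJMJD6 and 11.04 to 22.6 in siNT cells). Under MG132 PECAM1 overlapped, at 1.12 and 8.37 in siJMJD6 and 7.21 and 22.9 in siNT cells. The 7 epithelial markers summed higher in siJMJD6 cells in both tables. The sums were 2523 to 2833 against 1619 to 2401 in siNT cells under MG132, and 3372 to 3593 against 2725 to 3054 after heat shock. The single markers did not all follow. Under MG132 EPCAM, KRT19 and CLDN4 were higher without overlap, and KRT8, KRT18 and CLDN7 overlapped. CDH1 was lower there without overlap, at 36.2 and 12 in siJMJD6 and 41.2 and 51.1 in siNT cells. After heat shock KRT18 and CDH1 overlapped and the others were higher without overlap. The 6 fibroblast markers, 5 of them listed in the MG132 table, summed to 35.2 to 55.9 in siJMJD6 cells and 109.7 to 253 in siNT cells under MG132, and to 115 to 165 in siJMJD6 cells and 269.6 to 311 in siNT cells after heat shock. Of them COL1A2 was lower and COL1A1 higher in every siJMJD6 library than in the siNT libraries of the same stress, and PDGFRB stayed at 4.07 or less in every library. The part of these genes in the results was not tested.

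**Figure D1:**
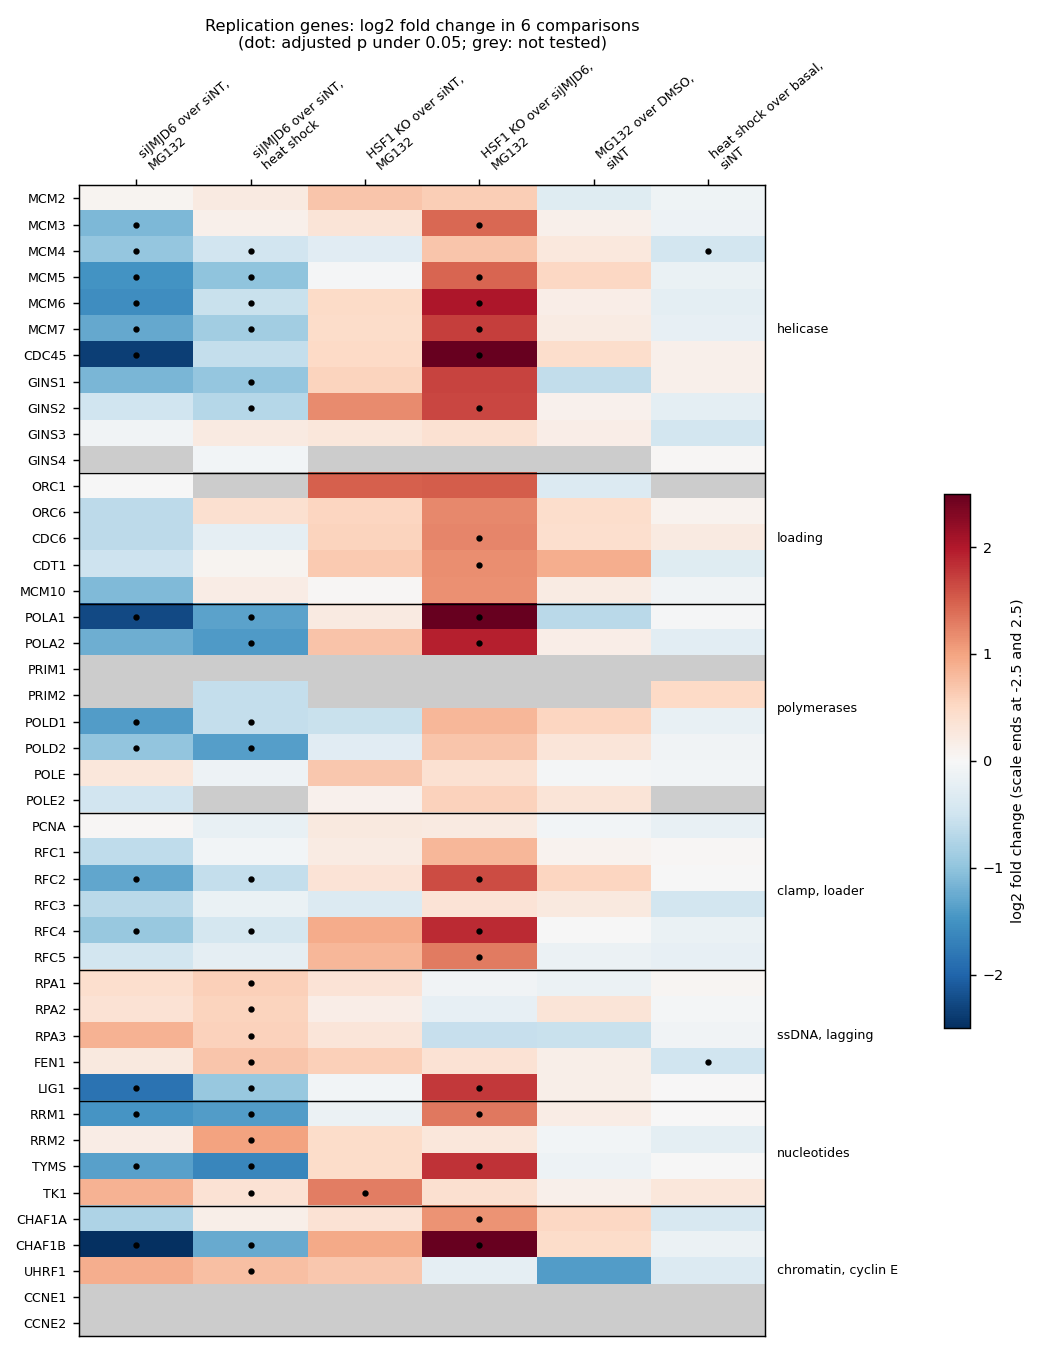
Heat map of log2 fold changes for the 44 replication genes (rows, grouped by role) in the 6 comparisons (columns, first-named group over second); blue is lower and red higher, dots mark adjusted p under 0.05 and grey marks genes not tested. In the siJMJD6 over siNT columns all 15 dots under MG132 are blue, and of the 23 dots after heat shock 16 are blue and 7 red, while the MG132 over DMSO column holds 0 dots.

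Among the helicase genes all calls with siJMJD6 were lower. Of 10 tested genes 6 fell under MG132, where 7.35% of all tested genes fell. Of 11 tested genes 6 fell after heat shock, where 24.9% of all tested genes fell, with 0 helicase genes higher in either. MCM7, a ring subunit, held 454 and 302 normalised counts in the KO libraries, 107 and 113 in siJMJD6 cells and 305 and 238 in siNT cells under MG132. After heat shock it held 121, 127 and 129 in siJMJD6 cells and 258, 220.4 and 211 in siNT cells. The siJMJD6 libraries lay below all others in both tables, with log2 fold changes against siNT of -1.28 ± 0.27, adjusted p = 0.00929 under MG132 and -0.86 ± 0.11, adjusted p = 8e-08 after heat shock. MCM5, another ring subunit, held 94.1 and 97.9 in KO, 25.6 and 45.5 in siJMJD6 and 101 and 95.6 in siNT cells under MG132. After heat shock MCM5 held 29.7, 28.8 and 25.4 in siJMJD6 and 73.5, 63.5 and 38.97 in siNT cells. Its effects were -1.50 ± 0.33, adjusted p = 0.011 under MG132 and -0.997 ± 0.21, adjusted p = 0.000182 after heat shock, again without overlap.

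CDC45, which joins the ring at the start of S phase, had the deepest fall of the helicase genes under MG132. It held 45.4 and 36.04 in KO, 2.21 and 9.22 in siJMJD6 and 33.9 and 23.7 in siNT cells, an effect of -2.36 ± 0.54, adjusted p = 0.0148. Its lower siJMJD6 library held about 2 reads. After heat shock it held 11.7, 24.4 and 12.7 in siJMJD6 and 22.2, 21.6 and 27.8 in siNT cells, groups that overlapped, and did not pass the test (-0.59 ± 0.30, adjusted p = 0.107). MCM4, also of the ring, fell in both tables, with effects of -0.97 ± 0.30, adjusted p = 0.0497 under MG132 and -0.48 ± 0.12, adjusted p = 0.00133 after heat shock, where the libraries held 97.3, 111 and 99.9 in siJMJD6 and 137, 146 and 147 in siNT cells. MCM6 fell too, with effects of -1.55 ± 0.48, adjusted p = 0.0499 under MG132 and -0.56 ± 0.18, adjusted p = 0.0121 after heat shock. MCM3 passed under MG132 and not after heat shock (-1.13 ± 0.31, adjusted p = 0.0306, against 0.12 ± 0.13, adjusted p = 0.463 after heat shock), and the GINS subunits GINS1 (-0.96 ± 0.36, adjusted p = 0.028) and GINS2 (-0.72 ± 0.22, adjusted p = 0.0088) passed after heat shock and not under MG132. A difference between the stresses was not tested. MCM2 of the ring had effects of 0.08 ± 0.31, adjusted p = 0.896 under MG132 and 0.23 ± 0.12, adjusted p = 0.125 after heat shock, neither past the test. GINS3 did not pass in either table, and GINS4 was tested after heat shock only and did not pass.

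Under MG132 each helicase call was lost in some of the fits that left out 1 library. Such a fit leaves 1 library in a group and less information on spread, so a lost call need not mean a changed effect. Without a DMSO or KO library the effects of MCM4 and MCM6 stayed at -0.97 and -1.55. Without siNT MG132 library 1 the effect of MCM5 was -1.46. Fewer of all tested genes were called in every such fit. MCM7 lost its call without siNT MG132 library 1 (adjusted p = 0.0893), and MCM5 and CDC45 lost theirs without that library or without siJMJD6 library 1 (0.0558 to 0.0726 and 0.078 to 0.111). CDC45 had a log2 effect of -1.52 without siJMJD6 library 1 and -3.20 without siJMJD6 library 2, and MCM6 of -0.67 and -2.43. With a constant of 10 in place of 1, CDC45 had -1.33. MCM4 and MCM6 lost their calls in 7 of the 8 fits that left out 1 library, all but the fit without siJMJD6 library 2 (adjusted p 0.0635 to 0.253 and 0.0597 to 0.312), and also with TMM or quantile scaling (0.0508 to 0.0592). MCM3 lost its call in 5 fits, without either siNT MG132 library, siJMJD6 library 1 or either KO library (0.0576 to 0.171). After heat shock MCM4, MCM5 and MCM7 kept their calls in every such fit. MCM6 lost its call without siNT heat shock library 2 (0.0775), GINS2 without siJMJD6 library 1 (0.0583), and GINS1 without any of the 3 siNT heat shock libraries or siJMJD6 library 1 (0.0582 to 0.122).

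The loading factors gave no calls in siJMJD6 against siNT cells. None of the 5 tested under MG132 passed the test in siJMJD6 against siNT cells, where 13.6% of all tested genes did. None of the 4 tested after heat shock passed, where 46.4% of all tested genes did. All 5 had negative effects under MG132, with a median of -0.66, beside -0.68 for all 39 replication genes tested. CDC6 and CDT1, which bring the ring to origins, had effects of -0.66 ± 0.39, adjusted p = 0.302 and -0.51 ± 0.28, adjusted p = 0.247 under MG132. After heat shock they had -0.22 ± 0.22, adjusted p = 0.439 and 0.06 ± 0.18, adjusted p = 0.817. MCM10, which helps to activate the helicase, had -1.10 ± 0.39, adjusted p = 0.0814 under MG132, and 0.18 ± 0.26, adjusted p = 0.586 after heat shock. ORC6 of the origin recognition complex had effects of opposite sign, -0.66 ± 0.41, adjusted p = 0.323 and 0.40 ± 0.20, adjusted p = 0.0975. ORC1 was tested under MG132 only, with -0.02 ± 0.68, adjusted p = 0.99, at levels of 8.51 and 4.60 in siJMJD6 and 13.4 and 2.79 in siNT cells.

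Polymerase genes fell in siJMJD6 cells, 3 of 6 tested under MG132 and 4 of 6 after heat shock, with 0 higher. The shares of all tested genes that fell were 7.35% and 24.9%. POLD2, the accessory subunit of polymerase delta, held 238 and 185 in KO, 164 and 101 in siJMJD6 and 239 and 272 in siNT cells under MG132. After heat shock it held 107, 96.9 and 111 in siJMJD6 and 261, 306 and 252 in siNT cells. The groups were wide apart after heat shock, with -1.37 ± 0.11, adjusted p = 2.4e-12, and closer under MG132, with -0.98 ± 0.28, adjusted p = 0.0369. POLD1, the catalytic subunit of the same enzyme, held 215 and 155 in KO, 125 and 83.6 in siJMJD6 and 276 and 264 in siNT cells under MG132, and its effects were -1.39 ± 0.29, adjusted p = 0.00888 under MG132 and -0.60 ± 0.14, adjusted p = 0.000888 after heat shock. For POLD1 the KO libraries also lay below the siNT libraries (-0.56 ± 0.29, adjusted p = 0.447).

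Both tested subunits of polymerase alpha were low in siJMJD6 cells. POLA1, its catalytic subunit, held 44.5 and 23.7 in KO, 11.8 and 1.77 in siJMJD6 and 30.9 and 24.6 in siNT cells under MG132, an effect of -2.27 ± 0.61, adjusted p = 0.0286. After heat shock POLA1 held 9.66, 15.01 and 21.5 in siJMJD6 and 35.8, 43.5 and 36.5 in siNT cells, an effect of -1.33 ± 0.26, adjusted p = 8.47e-05. POLA2, which carries the motif stretch printed above, held 56.3 and 47.4 in KO, 15.995 and 10.1 in siJMJD6 and 27.8 and 35.04 in siNT cells under MG132, and 14.9, 15.002 and 7.79 in siJMJD6 and 40.6, 28.7 and 33.4 in siNT cells after heat shock. It passed the test after heat shock (-1.42 ± 0.27, adjusted p = 4.38e-05) and not under MG132 (-1.23 ± 0.39, adjusted p = 0.0542), although its groups did not overlap in either table. POLE, the catalytic subunit of polymerase epsilon, did not pass in either (0.28 ± 0.44, adjusted p = 0.712 and -0.13 ± 0.27, adjusted p = 0.721). The primase genes PRIM1 and PRIM2 reached 20.03 at most in any library, and of them PRIM2 alone was tested, after heat shock. Under MG132, POLD1 lost its call without siNT library 1 (0.0623), POLA1 without either siNT library or siJMJD6 library 2 (0.0729 to 0.145), and POLD2 in 7 of 8 fits, all but that without siJMJD6 library 1 (0.0503 to 0.152). POLA1 had an effect of -1.16 without siJMJD6 library 2 and -3.37 without siJMJD6 library 1, and of -1.23 with a constant of 10.

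The clamp PCNA itself did not pass the test in siJMJD6 against siNT cells, with effects of 0.03 ± 0.33, adjusted p = 0.966 under MG132 and -0.18 ± 0.16, adjusted p = 0.37 after heat shock. Of its 5 loader subunits, RFC4 and RFC2 fell in both tables and RFC1, RFC3 and RFC5 passed in neither. The shares of all tested genes that fell were 7.35% under MG132 and 24.9% after heat shock. RFC4 held 536 and 660.03 in KO, 157 and 167 in siJMJD6 and 342 and 287 in siNT cells under MG132. After heat shock RFC4 held 138, 117 and 128 in siJMJD6 and 173, 176 and 172 in siNT cells. Its effects were -0.94 ± 0.24, adjusted p = 0.0217 under MG132 and -0.44 ± 0.12, adjusted p = 0.00249 after heat shock, and the 3 MG132 groups did not overlap, with KO highest and siJMJD6 lowest. RFC2 held 103 and 68.03 in KO, 27.7 and 25.03 in siJMJD6 and 63.8 and 68.2 in siNT cells, an effect of -1.29 ± 0.33, adjusted p = 0.0248 under MG132. After heat shock RFC2 held 50.7, 34.1 and 34.3 in siJMJD6 and 52.2, 64.1 and 61.7 in siNT cells, an effect of -0.59 ± 0.19, adjusted p = 0.0119. RFC4 lost its MG132 call without siNT library 1 or siJMJD6 library 1 (0.0549 to 0.147) and RFC2 without any of the 4 siNT and siJMJD6 libraries (0.0501 to 0.105). After heat shock RFC2 lost its call without siNT library 2, siJMJD6 library 2 or siJMJD6 library 3 (0.0565 to 0.0614).

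The genes that cover and join DNA split by direction. LIG1, the ligase that seals Okazaki fragments, had the smallest adjusted p of all 44 genes in siJMJD6 against siNT cells under MG132. It held 97.6 and 92.8 in KO, 29.8 and 25 in siJMJD6 and 96.8 and 104 in siNT cells, an effect of -1.84 ± 0.29, adjusted p = 0.00178. After heat shock LIG1 held 23.4, 32.996 and 25.4 in siJMJD6 and 50.3, 57.9 and 50.6 in siNT cells, an effect of -0.94 ± 0.20, adjusted p = 0.000206. LIG1 kept its call in all 15 other fits made under MG132, the 1 gene of the 15 called there to do so. FEN1, the nuclease that trims the same fragments before ligation, went the other way after heat shock. It held 278, 240.1 and 285 in siJMJD6 and 139, 168 and 189 in siNT cells, an effect of 0.70 ± 0.12, adjusted p = 6.43e-06, and 155 and 316 in siJMJD6 and 178 and 198 in siNT cells under MG132, where the groups overlapped (0.24 ± 0.31, adjusted p = 0.657).

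RPA1, RPA2 and RPA3 encode the trimer that coats single-stranded DNA. All 3 rose in siJMJD6 cells after heat shock, where 21.4% of all tested genes rose. RPA2 held 277, 310.1 and 277 in siJMJD6 and 184, 195 and 207 in siNT cells, an effect of 0.56 ± 0.11, adjusted p = 5.38e-05. RPA1 rose by 0.60 ± 0.14, adjusted p = 0.000611 and RPA3 by 0.58 ± 0.19, adjusted p = 0.0107, although 1 siJMJD6 library lay within the siNT range for RPA3. Under MG132 their effects had the same sign and did not pass the test, at 0.42 ± 0.33, adjusted p = 0.445 for RPA1, 0.36 ± 0.32, adjusted p = 0.493 for RPA2 and 0.87 ± 0.33, adjusted p = 0.103 for RPA3. RPA3 lost its heat shock call without siNT library 1 or siJMJD6 library 2 or 3 (0.0519 to 0.104).

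**Figure D2:**
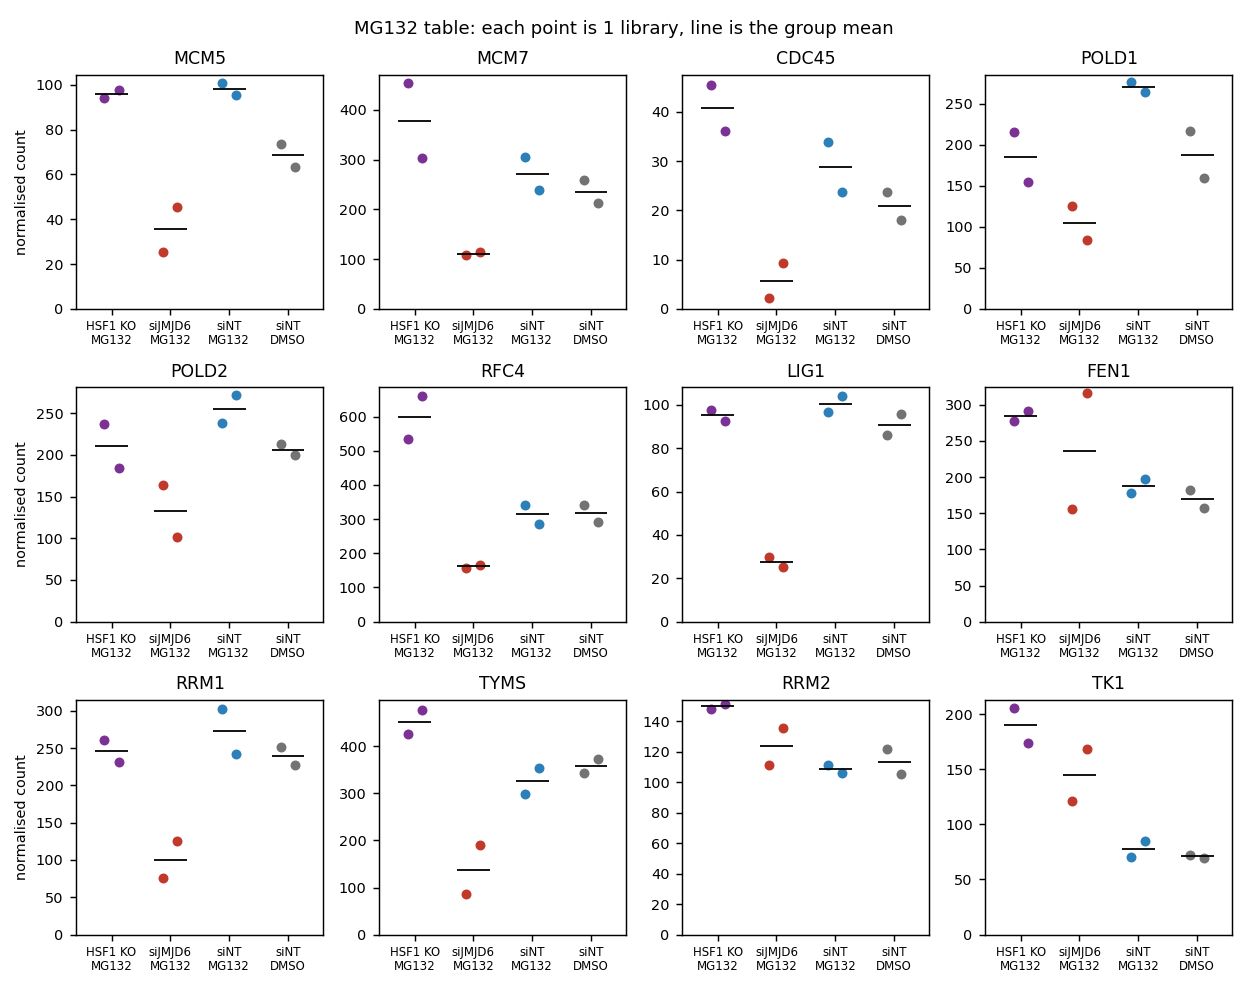
Normalised counts (vertical axes, from 0) of 12 replication genes in the 8 libraries of the MG132 table; each point is 1 library, the line is the group mean, and the groups from left are HSF1 KO, siJMJD6 and siNT under MG132 and siNT in DMSO. The siJMJD6 points are the lowest for MCM5, MCM7, CDC45, POLD1, POLD2, RFC4, LIG1, RRM1 and TYMS, while for TK1 the KO points (206 and 174) are the highest.

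The nucleotide enzymes split in the same way, and all 4 were called after heat shock, where 46.4% of all tested genes were called. TYMS, thymidylate synthase, makes dTMP, and had the smallest adjusted p of the 44 genes there. It held 87.9, 104 and 116 in siJMJD6 and 309, 324 and 322 in siNT cells, an effect of -1.63 ± 0.11, adjusted p = 5.77e-14. Under MG132 it held 425 and 479 in KO, 85.2 and 190.4 in siJMJD6 and 299.7 and 355 in siNT cells, an effect of -1.35 ± 0.32, adjusted p = 0.0169 between siJMJD6 and siNT. TYMS overlaps ENOSF1 on the other strand at its 3' end, and the strand setting of the counting was not given in the sources used here. Reads of the pair therefore cannot be told apart. RRM1, the large subunit of ribonucleotide reductase, held 70.97, 106 and 91.1 in siJMJD6 and 226, 246 and 228 in siNT cells after heat shock, an effect of -1.39 ± 0.14, adjusted p = 2.91e-10. Under MG132 RRM1 held 261 and 231 in KO, 75.6 and 125 in siJMJD6 and 303 and 242 in siNT cells, an effect of -1.47 ± 0.28, adjusted p = 0.00579. The siJMJD6 libraries lay below all others in both tables for both genes.

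RRM2, the small subunit of the same reductase and the one made mainly in S phase, moved against its partner. After heat shock it held 147, 174 and 167 in siJMJD6 and 79.1, 76.1 and 85.1 in siNT cells, a rise of 1.01 ± 0.14, adjusted p = 2.61e-07. Under MG132 it held 112 and 136 in siJMJD6 and 111 and 106 in siNT cells and did not pass (0.18 ± 0.26, adjusted p = 0.696). The directions of RRM1 and RRM2 were the same under both other scalings tried, TMM and quantile normalisation. TK1, thymidine kinase of the salvage route, held 149, 131 and 149 in siJMJD6 and 133, 92.2 and 109.9 in siNT cells, overlapping groups with a rise of 0.36 ± 0.14, adjusted p = 0.0324. Under MG132 its effect was 0.88 ± 0.28, adjusted p = 0.0542, on the other side of the threshold with TMM scaling (0.0474) and with a replicate block (0.0399). Under MG132, TYMS lost its call without either siNT library or siJMJD6 library 1 (0.0624 to 0.0829), with an effect of -0.77 without siJMJD6 library 1, and RRM1 without siNT library 1 (0.0593). TK1 lost its heat shock call without siNT library 2 or 3 or siJMJD6 library 1 or 3 (0.064 to 0.229).

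Of the chromatin genes, CHAF1B and CHAF1A encode subunits of the CAF-1 complex that places histones on new DNA. CHAF1B was nearly undetected in siJMJD6 cells under MG132, at 0.0503 and 0.857 normalised counts, about 1 read or less, against 27.5 and 23.6 in KO and 14.4 and 11.4 in siNT cells. Its fitted effect of -3.30 ± 0.62, adjusted p = 0.00489 depends on the added constant and was -1.13 with a constant of 10. After heat shock CHAF1B held 8.50, 8.55 and 1.92 in siJMJD6 and 15.5, 12.8 and 15.03 in siNT cells, an effect of -1.26 ± 0.42, adjusted p = 0.013 that lost its call without siJMJD6 library 3 (0.157; effect -0.69). CHAF1A did not pass in either table (-0.77 ± 0.31, adjusted p = 0.12 under MG132 and 0.14 ± 0.15, adjusted p = 0.459 after heat shock). UHRF1, which guides maintenance methylation to new DNA, held 35.9, 46.6 and 31.4 in siJMJD6 and 19.3, 17.1 and 31.8 in siNT cells after heat shock, overlapping groups with a rise of 0.75 ± 0.27, adjusted p = 0.0217. That call was lost without siNT library 1 or 2 or siJMJD6 library 2 (0.0743 to 0.118). The cyclin E genes CCNE1 and CCNE2, which drive entry into S phase with CDK2, lay at 8.32 or less in every library and were not tested.

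**Figure D3:**
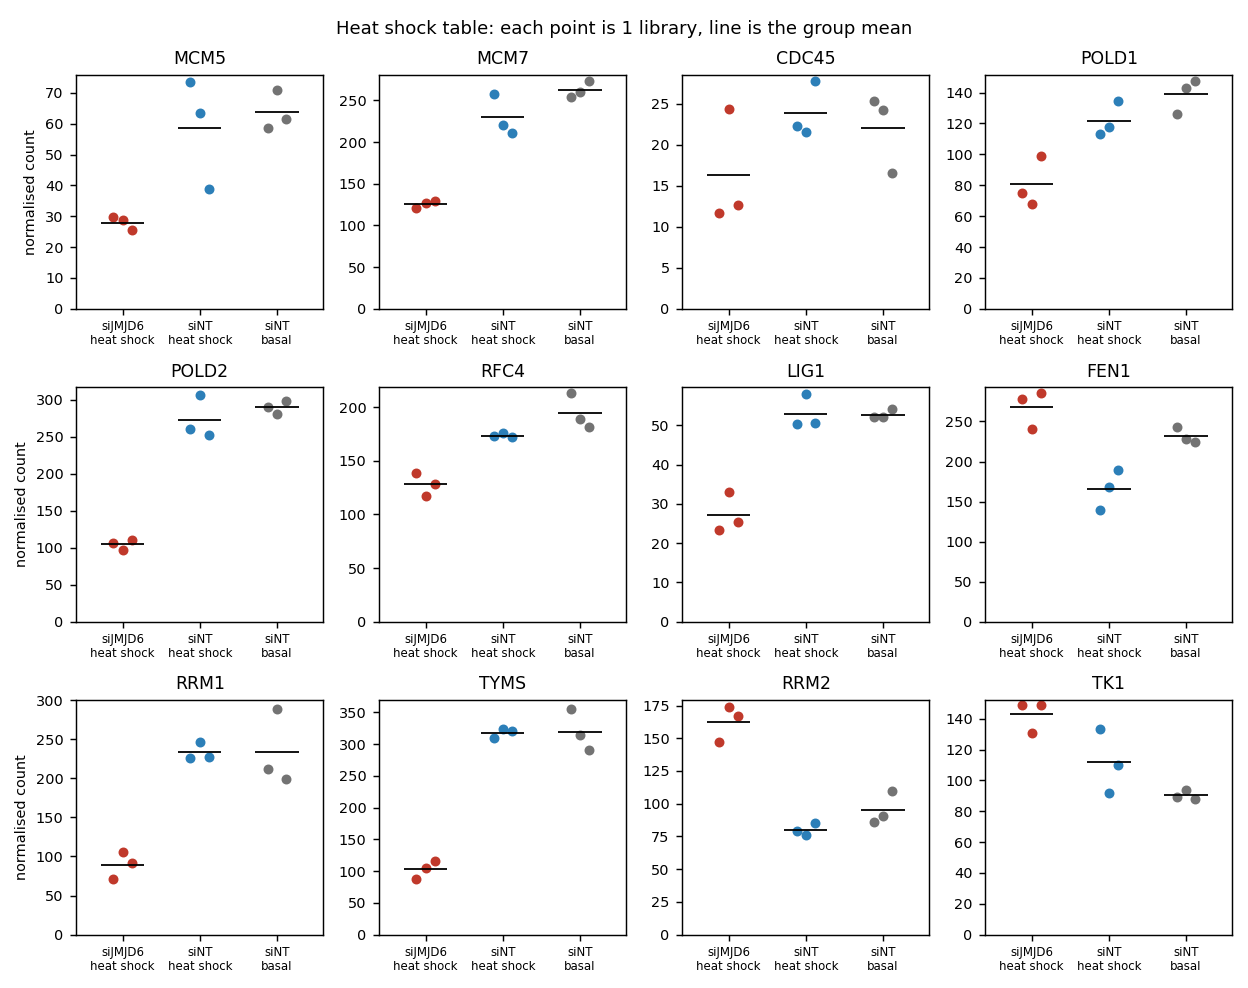
Normalised counts (vertical axes, from 0) of the same 12 genes in the 9 libraries of the heat shock table; each point is 1 library, the line is the group mean, and the groups from left are siJMJD6 and siNT after heat shock and siNT basal. For TYMS the 3 siJMJD6 points lie between 87.9 and 116 and the siNT heat shock points between 309 and 324, while for RRM2 the siJMJD6 points (147 to 174) lie above those of both other groups.

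The 2 siJMJD6 comparisons share no library, so their effects can be set against each other. Of the 37 genes tested in both, 13 fell in both: MCM4, MCM5, MCM6, MCM7, POLA1, POLD1, POLD2, RFC2, RFC4, LIG1, RRM1, TYMS and CHAF1B. These were 86.7% of the 15 that fell under MG132 and 81.2% of the 16 that fell after heat shock. Over all genes tested in both, the shared falls were 80.9% of those under MG132 and 24% of those after heat shock, where far more genes were called. MCM3 and CDC45 were called under MG132 and not after heat shock, and POLA2, GINS1 and GINS2 after heat shock and not under MG132. The 7 genes that rose after heat shock (RPA1, RPA2, RPA3, FEN1, RRM2, TK1 and UHRF1) all had a positive effect under MG132, of 0.18 to 0.90, none past the test. Over all genes tested in both, 2001 rose after heat shock and 488 of these also rose under MG132. How many of the 2001 had a positive effect under MG132 was not counted. No replication gene was called in opposite directions, and 13 of all genes tested in both were. The signs were the same for 29 of the 37 genes, 78.4%, against 74% of all genes tested in both, so the shared sign as such was near the background.

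**Figure D4:**
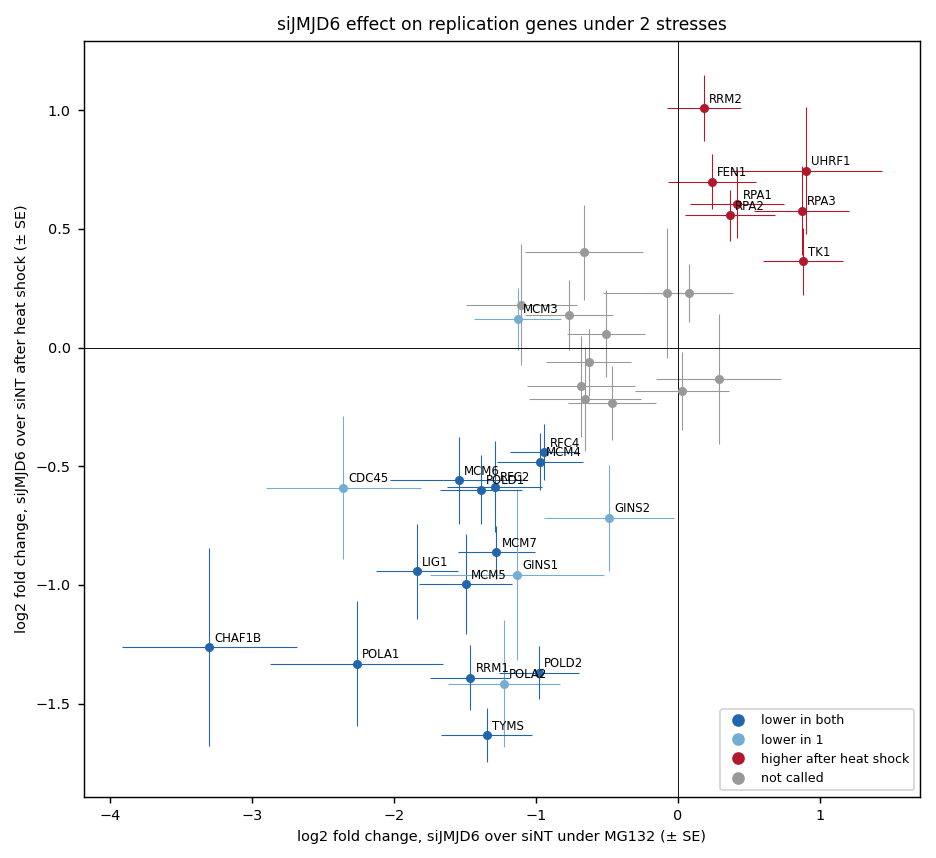
Log2 fold change of siJMJD6 over siNT under MG132 (horizontal) and after heat shock (vertical) for the 37 genes tested in both tables, with bars of 1 SE; colours mark genes lower in both, lower in 1, higher after heat shock, or not called. The 13 genes lower in both lie in the lower left, and the 7 higher after heat shock lie in the upper right.

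The KO libraries were set against siNT cells under MG132. Since the labels name an siRNA for the siNT cells and none for the KO, and do not say whether A and B are clones, loss of HSF1, the siRNA treatment and any difference between clones cannot be told apart. Against siNT cells, 1 of the 39 tested genes was called, 2.56%, where 1.28% of all tested genes were called. That gene was TK1, at 206 and 174 in KO and 70.1 and 85.1 in siNT cells, a rise of 1.28 ± 0.28, adjusted p = 0.0437. It lost its call without either library of the KO, siNT MG132 or siNT DMSO groups (0.0661 to 0.351). The effect was positive in 32 of the 39 genes (82.1%, against 51.4% of all tested genes), and both KO libraries lay above both siNT libraries in 22 of them (56.4%, where 23.7% of all tested genes did so). The median was 0.46, against 0.01 over all tested genes. Of the genes short of the test, RFC4 had 0.92 ± 0.24, adjusted p = 0.0924, GINS2 1.19 ± 0.46, adjusted p = 0.286 and ORC1 1.49 ± 0.68, adjusted p = 0.385. The 15 genes that fell with siJMJD6 had effects of -0.56 to 0.94 in the KO, 9 positive and 6 negative, against the same 2 siNT libraries. The median SE was 0.329 over the 39 replication genes and 0.394 over all tested genes of this table.

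Against siJMJD6 cells, the KO libraries were higher in 18 of 39 genes and lower in 0, a share of 46.2%, where 20.8% of all tested genes were called, 11.1% higher and 9.69% lower. This comparison shares the siJMJD6 libraries with the one against siNT and is given side by side with it. The rises spanned every role: RFC4 had 1.87 ± 0.24, adjusted p = 0.000243, MCM7 1.74 ± 0.27, adjusted p = 0.00101, LIG1 1.76 ± 0.29, adjusted p = 0.00133 and TYMS 1.82 ± 0.32, adjusted p = 0.00217. CDC45 had 2.86 ± 0.54, adjusted p = 0.00344, POLA2 1.94 ± 0.39, adjusted p = 0.00494, POLA1 2.50 ± 0.61, adjusted p = 0.0121, RFC2 1.63 ± 0.33, adjusted p = 0.00529, RRM1 1.33 ± 0.28, adjusted p = 0.00623 and MCM3 1.44 ± 0.31, adjusted p = 0.00645. Of the 18, 12 were also lower in siJMJD6 than in siNT cells and 6 were not called there, namely POLA2, GINS2, CDC6, CDT1, RFC5 and CHAF1A. The licensing factor CDT1 held 274 and 184 in KO, 96.8 and 103 in siJMJD6 and 139 and 147 in siNT cells (1.16 ± 0.28, adjusted p = 0.0107 for KO over siJMJD6), and CDC6 held 85.2 and 63.9 in KO, 29.8 and 32.5 in siJMJD6 and 56.6 and 43.5 in siNT cells (1.22 ± 0.39, adjusted p = 0.0433). RFC5 held 143 and 148 in KO and 48.97 and 69.7 in siJMJD6 cells (1.30 ± 0.31, adjusted p = 0.0111), and CHAF1A held 179 and 119 in KO and 56.4 and 78.02 in siJMJD6 cells (1.12 ± 0.31, adjusted p = 0.0221). CHAF1B had a fitted effect of 4.24 ± 0.62, adjusted p = 0.000669, or 1.76 with a constant of 10, for the reason given above.

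CDC45, CHAF1B, LIG1, MCM7, RFC4 and TYMS kept this call when any 1 library was left out. Of these, CDC45 and CHAF1B reached 10 normalised counts in no siJMJD6 library, so they passed the filter through groups where they were higher. Leaving out a siJMJD6 library moved several of the KO over siJMJD6 effects by over 1.5 times as a fold change, not as a log2 value. Without siJMJD6 library 1 the effect was 2.02 for CDC45, 3.60 for POLA1, 1.14 for MCM6 and 1.002 for GINS2. Without siJMJD6 library 2 it was 3.69 for CDC45, 1.39 for POLA1, 2.90 for MCM6 and 2.35 for GINS2. With a constant of 10 it was 1.72 for CDC45 and 1.42 for POLA1. Without KO library A most of the 18 calls were lost, among them RRM1, RFC2, POLA2 and CDT1, and fewer of all tested genes were called too. MCM3 and MCM5 were also lost without KO library B (0.0535 to 0.0599 and 0.0629 to 0.066), and CDC6 without any of the 4 libraries compared (0.0732 to 0.251). MCM6, GINS2 and RFC5 were lost without either KO library or siJMJD6 library 1 (0.0584 to 0.173), CHAF1A without KO library A or siJMJD6 library 1 (0.101 to 0.217), and POLA1 without KO library A or siJMJD6 library 2 (0.0617 to 0.133).

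**Figure D5:**
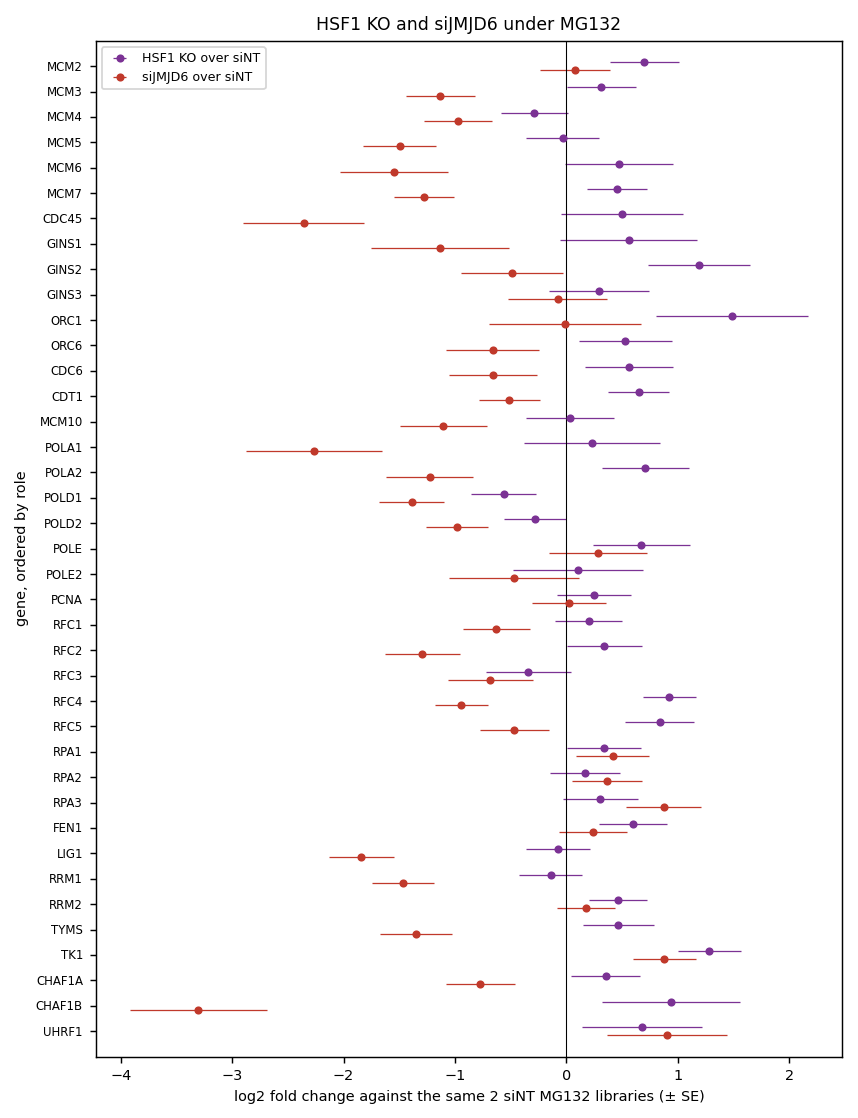
Log2 fold change (horizontal, with bars of 1 SE) of HSF1 KO over siNT (purple) and siJMJD6 over siNT (red) under MG132 for the 39 tested genes, ordered by role. Both are set against the same 2 siNT libraries, so errors in those move both; purple points are positive in 32 of 39 genes and red points negative in 29.

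Few replication genes passed the test for either stress alone in siNT cells. MG132 against DMSO called 0 of 39 genes, where 0.266% of all tested genes were called, with 2 at an unadjusted p under 0.05 by limma, 1 of each sign, where 5.66% of all tested genes reached that p. CDT1 had the smallest p, at 139 and 147 in MG132 and 77.8 and 73.3 in DMSO, 0.91 ± 0.28, adjusted p = 0.494. The other was UHRF1, -1.40 ± 0.54, adjusted p = 0.745. The CDT1 protein is destroyed by the proteasome once S phase begins, but only mRNA was measured and a link was not tested. Groups did not overlap for 14 of 39 genes, 10 above and 4 below in MG132, where 36.3% of all tested genes did so. Heat shock against basal called 2 of 39 genes, both lower, 5.13%, where 4.09% of all tested genes were called and 1.23% were called lower. FEN1 held 139, 168 and 189 after heat shock and 243, 228 and 224 in basal cells, an effect of -0.50 ± 0.12, adjusted p = 0.00677. MCM4 held 137, 146 and 147 after heat shock and 193, 204 and 192 in basal cells, an effect of -0.45 ± 0.12, adjusted p = 0.0218. Heat shock libraries lay below all basal libraries in 8 genes and above them in 0, where 9.21% and 10.5% of all tested genes did so. FEN1 lost its call without siNT basal library 1 or heat shock library 1 (0.0512 to 0.0908), and MCM4 without library 1 or 2 of either group (0.0668 to 0.105).

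A wider list of 113 further genes of replication, S phase control, nucleotide supply, chromatin assembly and the S phase checkpoint was fitted in the same way, and 103 of them were tested in each table. Under MG132, 18 fell and 8 rose in siJMJD6 against siNT cells, 25.2% called, where 13.6% of all tested genes were called. After heat shock 29 fell and 17 rose, 44.7% called, close to the 46.4% of all tested genes. DNMT1, the maintenance methyltransferase, held 58.6 and 110.5 in siJMJD6 and 349 and 287 in siNT cells under MG132 (-1.96 ± 0.30, adjusted p = 0.00141). DSCC1, of an alternative clamp loader, held 12.8 and 12.9 in siJMJD6 and 65.9 and 42.6 in siNT cells (-1.96 ± 0.38, adjusted p = 0.0062). CDKN2B, an inhibitor of CDK4 and CDK6, rose, at 139 and 114 in siJMJD6 and 35.1 and 46.3 in siNT cells (1.62 ± 0.30, adjusted p = 0.00456). After heat shock the smallest adjusted p values were those of POLE3, a small subunit of polymerase epsilon that rose (1.39 ± 0.10, adjusted p = 4e-14), SSRP1 of the histone chaperone FACT (-0.91 ± 0.09, adjusted p = 1.1e-10) and the purine enzyme PAICS (-1.10 ± 0.11, adjusted p = 1.58e-10), which fell. By group, 9 of 18 nucleotide enzymes were lower with siJMJD6 after heat shock and 3 higher. The other groups had 5 lower and 1 higher of 12 chromatin genes, 8 lower and 6 higher of 30 S phase regulators, 5 lower and 6 higher of 28 replisome genes and 2 lower and 1 higher of 15 checkpoint genes, where 24.9% of all tested genes were lower and 21.4% higher. Under MG132, 5 nucleotide enzymes were lower and 0 higher, and 4 chromatin genes were lower and 0 higher. The S phase regulators had 1 lower and 4 higher, the replisome genes 7 lower and 4 higher, and the checkpoint genes 1 lower and 0 higher. There 7.35% of all tested genes were lower and 6.22% higher. Differences between the groups were not tested.

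In the KO, 0 of the 103 wider genes were called against siNT cells by limma, with 9 at an unadjusted p under 0.05, where 12.8% of all tested genes reached that p. Against siJMJD6 cells 19 were higher and 6 lower, 24.3%, near the 20.8% called of all tested genes. DSCC1 (2.49 ± 0.38, adjusted p = 0.000919), DNMT1 (1.87 ± 0.30, adjusted p = 0.00112) and the reductase subunit RRM2B (2.24 ± 0.44, adjusted p = 0.00404) had the smallest adjusted p against siJMJD6 cells, all higher in the KO. MG132 called 0 of the 103 in siNT cells, with 7 at an unadjusted p under 0.05, where 5.66% of all tested genes reached it, and heat shock called 3, 2.91%, where 4.09% of all tested genes were called. CDKN2C, another inhibitor of CDK4 and CDK6, held 119, 101 and 96.5 after heat shock and 41.3, 40.9 and 44.6 in basal cells (1.29 ± 0.15, adjusted p = 2.34e-07), CDKN2B rose (0.48 ± 0.13, adjusted p = 0.0189), and the helicase RECQL4 fell (-0.63 ± 0.12, adjusted p = 0.000444).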

How the data were processed

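Gene expression was measured in 17 libraries of PC3M cells made with the QuantSeq FWD kit, per the labels' protocols; the kit yields a tag near the 3' end of each transcript. The signal values are the authors' normalised counts, deposited as 1 table for MG132 and 1 for heat shock. Per the submitters' processing notes the tools were FastQC 0.11.2, STAR 2.6.0 and HTSeq on build hg38. Annotation, strand setting and scaling were not given in the sources used here. Values were fractional, some libraries held small positive values where others held 0, and the step of 1 read was clear in 11 libraries only, so no count test was run. Tables were scaled separately and tests stayed within a table.

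Log2(normalised count + 1) was fitted by limma 3.58.1 (R 4.3.3) using a variance trend and all groups of a table in 1 fit, and tested on simulated data. Genes needed at least 10 normalised counts in 2 libraries (MG132) or 3 (heat shock). No replication gene passed through 1 group only. Of the genes called with siJMJD6, some reached 10 in no siJMJD6 library and so passed through groups where they were higher. These were CDC45 and CHAF1B under MG132, also in the comparison with the KO, and GINS1 and CHAF1B after heat shock. P-values were adjusted by Benjamini-Hochberg over all 9778 or 9831 tested genes and called under 0.05. Groups came from the labels, and replicate numbers were not used as pairs. Alternatives were a pseudocount of 10, no filter, TMM and quantile scaling, no variance trend, only the 2 groups compared, a replicate block, and leaving out each library.

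The members and all lists were chosen with earlier results of these data known. Values in every library were given for at most 3 called genes per role and comparison, by smallest adjusted p, or for the gene with the smallest p where none was called, and up to 3 called genes of the wider list were named per comparison. Other named genes were chosen after their values were seen.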

Additional observations from a re-analysis of the deposited data

Results flagged for a closer look

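MCM4 and CHAF1A had stress effects of opposite sign in the 2 tables, with siNT groups that did not overlap in either, as was so for 36.3% of all tested genes under MG132 and 19.8% after heat shock. The difference was not tested. MCM4 held 163 and 175 normalised counts in MG132 and 158 and 126 in DMSO, a log2 fold change of 0.26, and 137, 146 and 147 after heat shock and 193, 204 and 192 in basal cells, a log2 fold change of -0.45. CHAF1A held 123 and 106 in MG132 and 90.2 and 69.8 in DMSO, 0.52, and 84.02, 75.5 and 84.8 after heat shock and 94.4, 122 and 109 in basal cells, -0.40. Of the 4 effects, that of MCM4 after heat shock passed limma's test and the other 3 did not.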

How the results depend on the processing

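Of 15 genes lower with siJMJD6 under MG132, 7 were called with no filter on low values, 5 with no variance trend and 5 with only the 2 groups compared. Of all tested genes 4.79%, 7.04% and 6.89% were called there, against 13.6% in the main fit. For the HSF1 knockout against siNT, 1 call became 0 with no filter, 0 with no variance trend and 2 with only the 2 groups compared. Of all tested genes 0.206%, 0.491% and 2.34% were called there, against 1.28% in the main fit. The 2 heat shock calls became 0 with no variance trend, where 1.71% of all tested genes were called, against 4.09% in the main fit. With 1 library left out, the number called ranged over 2 to 12 for siJMJD6 under MG132, 6 to 22 for the knockout against siJMJD6, 0 to 1 for the knockout against siNT, 18 to 24 for siJMJD6 after heat shock and 0 to 2 for heat shock, and stayed at 0 for MG132. The lowest came without siNT MG132 library 1 for siJMJD6 under MG132 and without KO library A for the knockout against siJMJD6. A pseudocount of 10 and both scalings kept every count within 1.5 times, and the scalings moved the median of all genes by at most 0.0311. The cause of these changes was not tested. No called value of the 44 genes changed sign in any fit.

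Same-numbered libraries deviated together at r = 0.0447 to 0.368 in the MG132 table, with 2 numbers only, and at -0.0348 to 0.0943 after heat shock. The numbers were not taken as pairs in either table. An effect shared by same-numbered MG132 libraries was not tested. With a replicate block the calls were 0 for MG132, 16 for siJMJD6 under MG132 (15 lower, 1 higher, TK1), 2 for heat shock and 23 for siJMJD6 after heat shock. For siJMJD6 under MG132 the block fit, made without the KO libraries, called 18.8% of all tested genes, against 13.6% in the main fit. No paired analysis was possible for the knockout because its libraries carry letters. Values under about 1 read, as for CHAF1B with siJMJD6 under MG132, cannot be told from 0 at this depth.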
